A study of Mus musculus with 9 samples.

Results

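The subunits of the mitochondrial respiratory chain and of the ATP synthase were followed in murine Tc17 cells, IL-17-producing CD8+ T cells, cultured with or without dimethyl fumarate (DMF). A gene was taken as a member when its symbol followed the naming of subunits of complex I (Nduf), III (Uqcr), IV (Cox4 to Cox8) or V (Atp5), or of a protein gene of the mitochondrial genome (mt-), and when its mean over the 9 libraries reached a normalized count of 10. This gave 82 members of 41388 genes, 75 encoded in the nucleus and 7 in the mitochondrion. Complex I had 42 of them (37 nuclear, 5 mitochondrial), complex III 9 (8 and 1), complex IV 14 (13 and 1) and complex V 17 (all nuclear). A further 11 genes fitted by symbol but stayed under the minimum.

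The cells were naive CD62L+CD44-CD8+ cells of C57BL/6 mice of 8–12 weeks, sorted from lymph node and spleen and polarized for 48 h. All groups received plate-bound anti-CD3, anti-CD28, IL-2, TGF-β, IL-6 and anti-IFN-γ, and all contained the solvent DMSO at 0.2%. Cultures held the solvent alone (Ctrl), 20 µM DMF, an electrophilic drug given in multiple sclerosis, or 20 µM DMF with 50 µM of the thiol glutathione (DMF + GSH). RNA of each group was sequenced in 3 libraries, numbered 1 to 3, of which replicate 1 is titled batch 1 and replicates 2 and 3 batch 2. Nothing in the labels says that libraries came from separate mice. For their experiments in general, the authors state at least 3 independent biological replicates, without naming the mice of these libraries. The p-values measure the spread between these libraries, which may be technical.

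Values are read counts per gene divided by a factor per library (normalized counts), given below in the order of replicates 1, 2 and 3. Recovered depth was 7671772 to 14511926 reads per library. A gene was called at a Benjamini-Hochberg adjusted p under 0.05 in limma with this batch in the model, over 11599 genes with a mean of at least 10, and changes are log2 differences of normalized count + 1. The replicate numbers paired the libraries, and a second fit, blocked by that number, is printed beside counts that it moved. The 7 CD8 T cell markers summed to between 32761 and 39435 over the libraries, erythroid markers were at 0 and Cd4 had a mean of 1.87 over the 9 libraries. The 3 myeloid markers found, Lyz2, Csf1r and Itgax, summed to 185 in Ctrl replicate 3 and to between 6.35 and 22.3 in the other 8 libraries, and their part in the results was not tested. The Tc17 marker Il17a had a mean of 397 in Ctrl, 105 with DMF and 368 with DMF + GSH, and the part of this difference in the results was not tested either. Without Ctrl replicate 3 the test called 16 members higher and 3 lower with DMF, when 32.7% of all genes were called. In bulk RNA, a change in the number of cells of 1 kind and a change in RNA per cell cannot be told apart.

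The respiratory chain passes electrons from NADH through complex I and from succinate through complex II to ubiquinone, then through complex III and cytochrome c to complex IV and oxygen. The protons pumped by complexes I, III and IV drive ATP synthesis by complex V. Most subunits are encoded in the nucleus and imported, whereas a small set of hydrophobic core subunits is made inside the mitochondrion from its own genome, so that complexes I, III, IV and V need both. Activated T cells enlarge their mitochondria and raise respiration while they grow and divide.

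With DMF, most nuclear-encoded subunit genes lay higher than in Ctrl by a small amount, whereas the median of mitochondrial-encoded ones was near 0. Of the 75 nuclear members, 66 had a difference above 0 between DMF and Ctrl, and the median log2 difference was 0.21, against 0.0052 over all genes tested. The median was 0.15, 0.22 and 0.28 within replicate numbers 1, 2 and 3, and 53 of the 75 were higher in all 3 numbers, whereas 34.3% of all genes were. In 43 of them all 3 DMF libraries lay above all 3 Ctrl libraries, against 21.6% of all genes. In the other direction, 6 of the 82 members were lower in all 3 numbers (32.0% of all genes) and 4 of the 82 had all DMF libraries below all Ctrl libraries (19.8%), namely Cox7a2l, Atp5sl, mt-Co1 and mt-Cytb. The 7 mitochondrial members had a median of 0.019, with 0.078, −0.091 and −0.017 by number, and this median turned to −0.047 under quantile normalization and −0.0078 when scaled to reads outside the mitochondrial genome.

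Members passed the test at a share near that of all genes. The test called 20 of the 82 members (24.4%), against 28.0% of all genes tested, and edgeR on the recovered reads called 21. The direction was uneven, since 18 members rose (22.0%, against 14.6% of all genes called higher) and 2 fell (Cox7a2l and Atp5sl; 13.3% of all genes were called lower). With the replicate block 40 members rose and 4 fell, against 23.7% and 21.4% of all genes. No member reached the stricter threshold of an adjusted p under 0.01 together with an absolute log2 difference of at least 0.75, which 2.89% of all genes passed, while 38 members had an unadjusted p under 0.05, as did 41.5% of all genes. The count of risen members depended on the libraries. It was 0 without DMF replicate 1 and 5 each without Ctrl replicate 1, Ctrl replicate 2 or DMF replicate 3, while 0.948%, 5.41%, 10% and 8.22% of all genes were called in these fits. With the block it stayed between 20 and 44, when 35.4% to 47.1% of all genes were called.

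**Figure D1:**
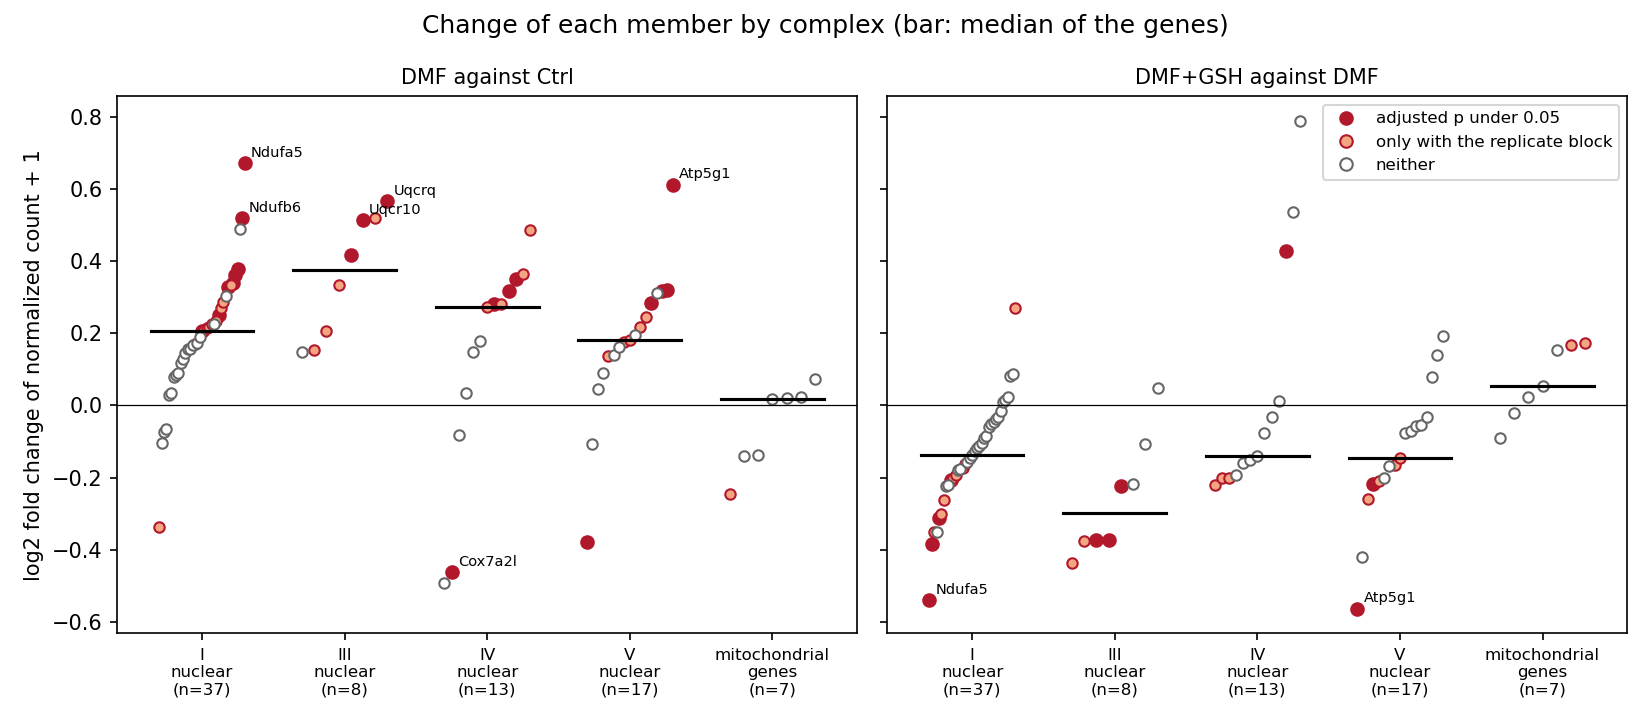
Each point is 1 member, placed by complex on the x axis and by its log2 difference on the y axis, for DMF against Ctrl (left) and DMF + GSH against DMF (right). Filled red points were called, light red points were called only with the replicate block, and bars are medians. Nuclear medians lie above 0 on the left (0.21, 0.38, 0.27 and 0.18 for complexes I, III, IV and V) and below 0 on the right, while the median of the 7 mitochondrial members is 0.019 on the left, where mt-Co1 is lowest at −0.25.

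Complex III had the highest median. Its 8 nuclear members had a median difference of 0.38 with DMF, all 8 were higher in all 3 replicate numbers, and 3 of them rose (7 with the block), against 14.6% of all genes called higher (23.7% with the block). The 3 were small subunits. Uqcrq, which encodes the small subunit QCR8, had normalized counts of 895, 900.1 and 856 for Ctrl, 1268, 1458 and 1216 for DMF and 868, 1108 and 1072 for DMF + GSH. The DMF libraries lay above the 6 others, and the rise was 0.57 (SE 0.10, adjusted p = 0.0064), 1.48-fold. Uqcr10, the subunit QCR9, had 526, 599 and 567 for Ctrl and 756, 770.4 and 894 for DMF, with no overlap and a difference of 0.51 (SE 0.11, adjusted p = 0.0105). Uqcrb, the subunit QCR7, rose by 0.42 (adjusted p = 0.0322) from a lower level of 141, 148 and 158 in Ctrl. Uqcr11 was as far apart, with 233, 191 and 228 for Ctrl and 305, 323 and 305 for DMF, its DMF + GSH libraries spread from 158 to 281, and it missed the threshold (difference 0.52, adjusted p = 0.0548, with the block 0.00769). The 2 large core proteins differed less. Uqcrc1 differed by 0.21 (SE 0.07, adjusted p = 0.0501) and Uqcrc2 by 0.15 (SE 0.058, adjusted p = 0.0733), and both passed with the block (adjusted p = 0.00459 and 0.0197). Uqcrfs1, the Rieske iron-sulfur protein that hands electrons to cytochrome c1, had 1607, 1305 and 1889.8 for Ctrl and 2120.2, 1636 and 2298 for DMF. The groups overlapped, replicate 2 was the lowest in both, and the difference of 0.34 passed only with the block (adjusted p = 0.152 and 0.0012).

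Complex I, the NADH dehydrogenase, had 8 of 37 nuclear members risen and none called lower, and with the block 17 were called higher and 1, Ndufv3, lower. Of all genes 14.6% were called higher and 13.3% lower, and with the block 23.7% and 21.4%. Ndufa5, an accessory subunit of the peripheral arm, changed most, with normalized counts of 250.5, 258 and 240.3 for Ctrl, 386, 414 and 395 for DMF and 205, 328 and 304 for DMF + GSH. All DMF libraries were above all others, and the rise of 0.67 (SE 0.13, adjusted p = 0.00897) was 1.59-fold. Ndufb6, an accessory subunit of the membrane arm, had 356, 391 and 361 for Ctrl, 559.7, 485 and 548 for DMF and 345, 442 and 436 for DMF + GSH. Its groups did not overlap between Ctrl and DMF with a difference of 0.52 (SE 0.11, adjusted p = 0.00982), and 31.6% of its 50-base windows also occur in transcripts of the overlapping gene Smim27. Ndufs4, an accessory subunit needed for a stable complex, had 362, 332 and 367 for Ctrl and 463, 443 and 471 for DMF and rose by 0.38 (adjusted p = 0.0325). Ndufa2, Ndufa4, Ndufs6 and Ndufa9 rose by 0.36, 0.34, 0.33 and 0.21 (adjusted p = 0.0423, 0.0296, 0.0211 and 0.0409). Ndufa4 carries a complex I name, but its protein is now placed in complex IV. Ndufb4 had 32.2, 38.1 and 29.9 for Ctrl and 49.7, 47.1 and 44.5 for DMF, with no overlap and a difference of 0.49 that missed the threshold (adjusted p = 0.0783).

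The 7 nuclear core subunits of complex I, among them those that carry the flavin and the iron-sulfur clusters or bind ubiquinone, had a median of 0.12. Of these 7, 1 rose (2 with the block), where 14.6% of all genes were called higher (23.7% with the block). The 30 other nuclear members had a median of 0.21 and 7 of them rose (15 with the block), beside the same shares of all genes. The core gene that rose was Ndufs1, the largest iron-sulfur subunit, with 1387, 1273 and 1422 for Ctrl and 1603, 1605 and 1641 for DMF and a difference of 0.25 (SE 0.071, adjusted p = 0.0281). Ndufv1, which binds NADH, differed by 0.16 (adjusted p = 0.154), Ndufs3 by 0.12 (0.239) and Ndufs8 by 0.079 (0.485). Ndufs7 had 731, 613 and 724 for Ctrl and 766, 821 and 813 for DMF and passed with the block alone (difference 0.22, adjusted p = 0.118 and 0.0372). On the lower side, Ndufv3, an accessory subunit of the NADH-binding part, had 681, 791 and 565 for Ctrl, 486, 579.5 and 533 for DMF and 569.9, 788 and 585 for DMF + GSH. It was lower with DMF in each replicate number although the groups overlapped, with a difference of −0.34, and was called only with the block (adjusted p = 0.105 and 0.00266). Ndufa6 and Ndufs5 differed by −0.10 and −0.066 and did not pass in either fit.

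**Figure D2:**
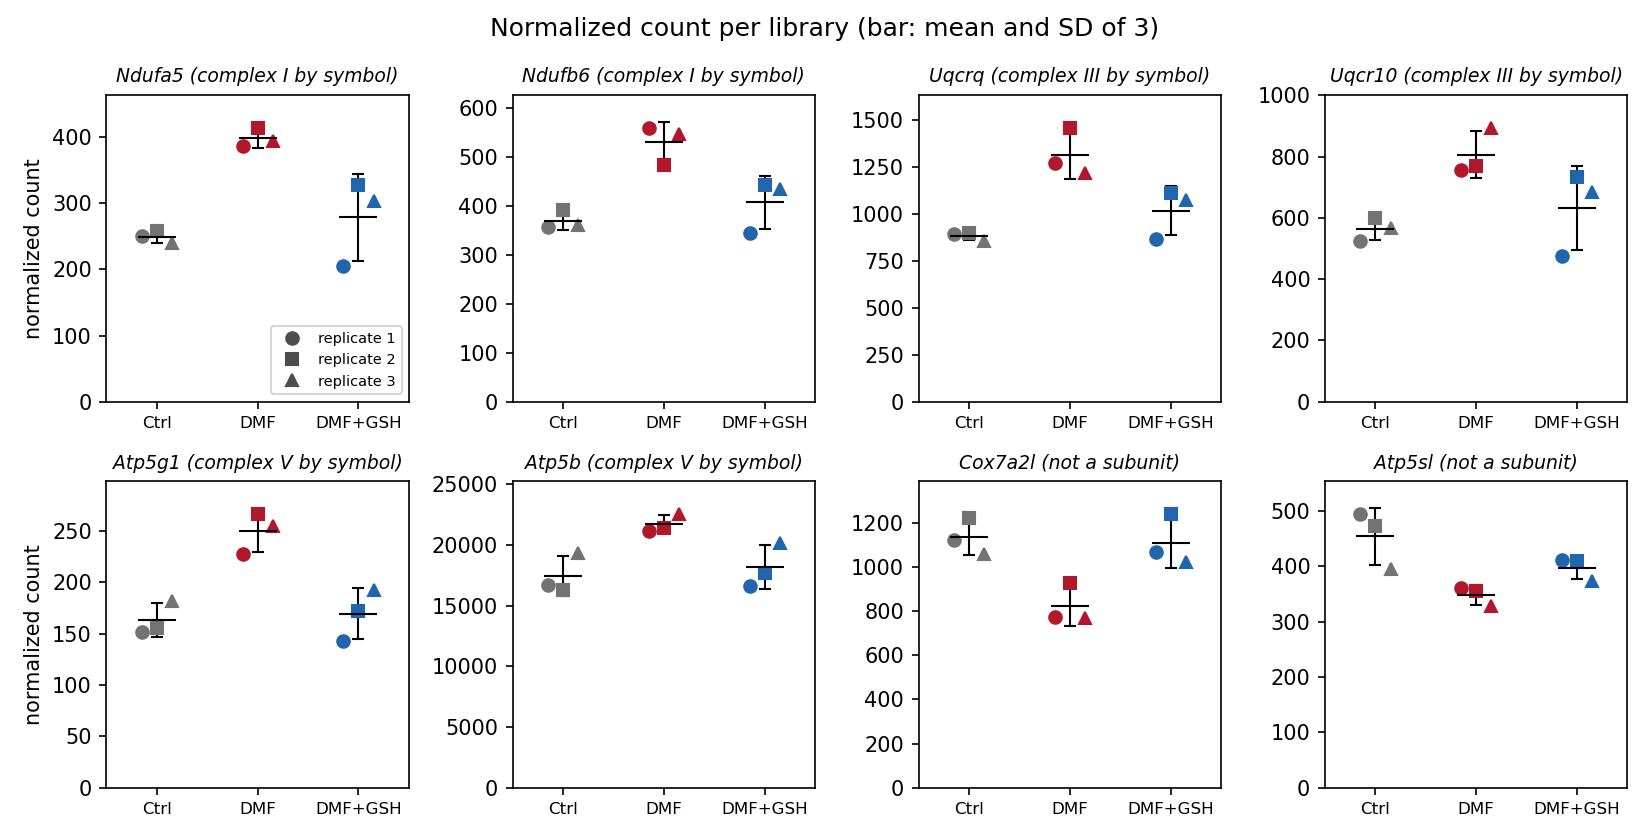
Normalized count (y axis, from 0) of 8 members in the 3 groups on the x axis, with circles, squares and triangles for replicates 1, 2 and 3 and bars for mean and SD. In Ndufa5, Ndufb6, Uqcrq, Uqcr10, Atp5g1 and Atp5b the DMF libraries lie above the Ctrl libraries, and in Cox7a2l and Atp5sl below them.

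In complex IV, cytochrome c oxidase, 3 of 13 nuclear members rose, 1 fell (7 and 1 with the block), against 14.6% and 13.3% of all genes (23.7% and 21.4% with the block), and the median difference was 0.27. Cox7b had 772, 853 and 772 for Ctrl and 963, 999.9 and 1096 for DMF and rose by 0.35 (SE 0.086, adjusted p = 0.0169). Cox7a2, the form of subunit VIIa found in most tissues, had 695, 726 and 712 for Ctrl and 864, 869.7 and 925 for DMF and rose by 0.32 (SE 0.081, adjusted p = 0.0189). Cox6a1, likewise the widespread form of its subunit, had 1751, 1827 and 1686 for Ctrl and 2054, 2206 and 2136 for DMF and rose by 0.28 (SE 0.083, adjusted p = 0.0322). None of these 3 overlapped between Ctrl and DMF. Cox5a varied with the replicate number and had 774, 562 and 979.8 for Ctrl, 1186, 745 and 1332 for DMF and 769, 899 and 1136 for DMF + GSH. Replicate 2 was the lowest in Ctrl and with DMF, each DMF library was above the Ctrl library of its number, and the difference of 0.49 passed with the block only (adjusted p = 0.168 and 0.00117). Cox5b, Cox6b1 and Cox8a differed by 0.37, 0.27 and 0.28 and also passed with the block only (adjusted p = 0.0181, 0.0141 and 0.0106). Cox4i1, the regulatory subunit IV, differed by 0.036 (adjusted p = 0.744).

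The 2 members that fell are taken by their symbols but are not structural subunits, and without these and Atp5s, 18 of 72 nuclear genes rose and none fell (40 and 1 with the block), beside 14.6% and 13.3% of all genes (23.7% and 21.4% with the block). This set leaves out both genes that fell, so that its 0 is set by the choice. Cox7a2l encodes a factor described as linking complexes III and IV into supercomplexes, and whether it does so in this mouse strain was not tested. Its counts were 1120.3, 1221 and 1059 for Ctrl, 774, 928 and 768 for DMF and 1065, 1238 and 1023 for DMF + GSH. Ctrl and DMF + GSH overlapped and both lay above DMF, with a log2 difference of −0.46 (SE 0.10, adjusted p = 0.0115) between DMF and Ctrl. Atp5sl encodes a protein of complex I assembly rather than of the ATP synthase, and had 494, 472 and 395 for Ctrl and 361, 355 and 327 for DMF, with a difference of −0.38 (SE 0.095, adjusted p = 0.018). Of the windows of Cox7a2l, 13.8% also occur in the processed pseudogene Gm6969, and of those of Atp5sl none occur in another transcript.

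In complex V, the ATP synthase, 4 of 17 members rose and 1, Atp5sl, fell (9 and 1 with the block), against 14.6% and 13.3% of all genes (23.7% and 21.4% with the block). The ring subunit c is encoded by 3 nuclear genes whose mature proteins are the same. Atp5g1 had 152, 155 and 182 for Ctrl, 227, 266 and 255 for DMF and 143, 172 and 193 for DMF + GSH. All DMF libraries were higher than all others, and the rise was 0.61 (SE 0.11, adjusted p = 0.00722), 1.53-fold. Atp5g3, which had a level of 1806 per 1000 bases of merged exons against 39.5 for Atp5g1 and 19.2 for Atp5g2, had 3471, 3442 and 3959 for Ctrl and 4148, 4540.5 and 4528 for DMF and rose by 0.28 (SE 0.069, adjusted p = 0.0165). Atp5g2 differed by 0.16 and did not pass (adjusted p = 0.618), and 38.4% of its windows are shared with other genes, beside 11.1% for Atp5g1 and 0% for Atp5g3. Merged exons spanned 4912 bases in Atp5g1, 1675 in Atp5g2 and 2181 in Atp5g3, so that the levels per length depend on these spans. In the head, Atp5b, the catalytic β subunit, had 16726, 16263 and 19297 for Ctrl and 21103, 21427 and 22530.2 for DMF. The groups did not overlap, and the rise was 0.32 (SE 0.089, adjusted p = 0.026). Atp5d, in the central stalk, rose by 0.32 (SE 0.10, adjusted p = 0.0348). The α subunit Atp5a1 and the γ subunit Atp5c1 differed by 0.14 and 0.091 (adjusted p = 0.179 and 0.278), and Atp5a1 passed with the block (0.0377). Atp5k, Atp5s and Atp5h, at 0.31, 0.19 and −0.11, did not pass in either fit.

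The genes of the mitochondrial genome are transcribed as long precursors from promoters on both strands and cut apart at the tRNAs. Per 1000 bases, mt-Co1, the catalytic subunit of complex IV, had the highest level of all members (mean 44744), followed by mt-Cytb of complex III (41468), mt-Nd1 (36736), mt-Nd2 (20287), mt-Nd5 (18048), mt-Nd6 (15168) and mt-Nd4 (9326), all complex I. The highest nuclear members were Atp5b (4506) and Atp5a1 (4506). None of the 7 was called for DMF against Ctrl in limma or in edgeR (1 with the block), and 1 had an unadjusted p under 0.05. Over all genes these shares were 28.0% in limma, 23.7% higher and 21.4% lower with the block, and 41.5% for the unadjusted p. The nearest was mt-Co1, with normalized counts of 76314, 77235 and 68851 for Ctrl, 68015, 62831 and 56968 for DMF and 81580.2, 69473 and 60892 for DMF + GSH. DMF lay below Ctrl in each replicate number and in all libraries, by a difference of −0.25 (SE 0.10, adjusted p = 0.103), which passed with the block (adjusted p = 0.00377). mt-Cytb had 49348, 48180.5 and 48031 for Ctrl and 47287, 41545 and 43449 for DMF, also without overlap, with a difference of −0.14 (adjusted p = 0.211, with the block 0.0564). mt-Nd5 differed by −0.14 (adjusted p = 0.246), and mt-Nd1, mt-Nd2, mt-Nd4 and mt-Nd6 by between 0.019 and 0.073, where mt-Nd1, mt-Nd4 and mt-Nd6 were below 0 under quantile normalization. mt-Nd6 lies on the strand opposite to the other 6 and overlaps mt-Nd5 by 14 bases. The library kit does not mark strand, so that its reads cannot be told from antisense RNA.

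The other 6 protein genes of the mitochondrial genome could not be followed. mt-Co2, mt-Atp8, mt-Atp6, mt-Co3 and mt-Nd4l were at 0 reads in each of the 9 libraries, where counting error allows up to 3 reads, and mt-Nd3 had 42 reads in all. These 6 are neighbours, at chrM:7013-10173 of GRCm38, with mt-Co1 before and mt-Nd4 behind. A run of pseudogenes at chr1:24611535-24616197 (minus strand) repeats this stretch. A script compared all 50-base windows, the length of the reads, with the transcripts of other genes in the GENCODE vM21 annotation. Of the windows of mt-Co2, mt-Co3, mt-Atp6, mt-Nd4l and mt-Nd3, 100%, 99.9%, 99.5%, 98.8% and 98.0% also occur in such a transcript, of mt-Nd4 62.2%, of mt-Co1 51.1%, and of mt-Nd2 and mt-Nd5 8.19% and 7.61%. mt-Nd1, mt-Nd6 and mt-Cytb share none. mt-Atp8 is the exception among the 6, with 0 windows shared with an annotated transcript and 0 reads, and it overlaps mt-Atp6 by 43 bases. Sequence outside annotated transcripts, such as that between the pseudogenes on chr1, was not searched. How reads with several matches were counted is not stated in the sources used here, so that the levels of mt-Nd4 and mt-Co1 per length may rest on part of the gene, and the part of these copies in the zeros was not tested.

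The first 60 bases of 2 of these genes and of their chromosome 1 copies, from the GENCODE transcripts, show how near the copies are, with capitals at the base that differs.
mt-Nd3: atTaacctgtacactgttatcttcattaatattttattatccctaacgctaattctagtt
Gm28438: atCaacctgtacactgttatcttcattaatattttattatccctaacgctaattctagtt
mt-Co2: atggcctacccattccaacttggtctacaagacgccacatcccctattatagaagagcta
Gm28661: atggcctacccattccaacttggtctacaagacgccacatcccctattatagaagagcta
Over the 345 bases of Gm28438 that line up with mt-Nd3 the single substitution was T3C, counted from the first base of the gene, and over the 681 bases of Gm28661 there were 0 against mt-Co2. Gm28438 is the copy with the most counts, a mean of 32.8, in libraries where mt-Nd3 had a mean of 4.47. The other 6 copies had means between 0 and 2.06.

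**Figure D3:**
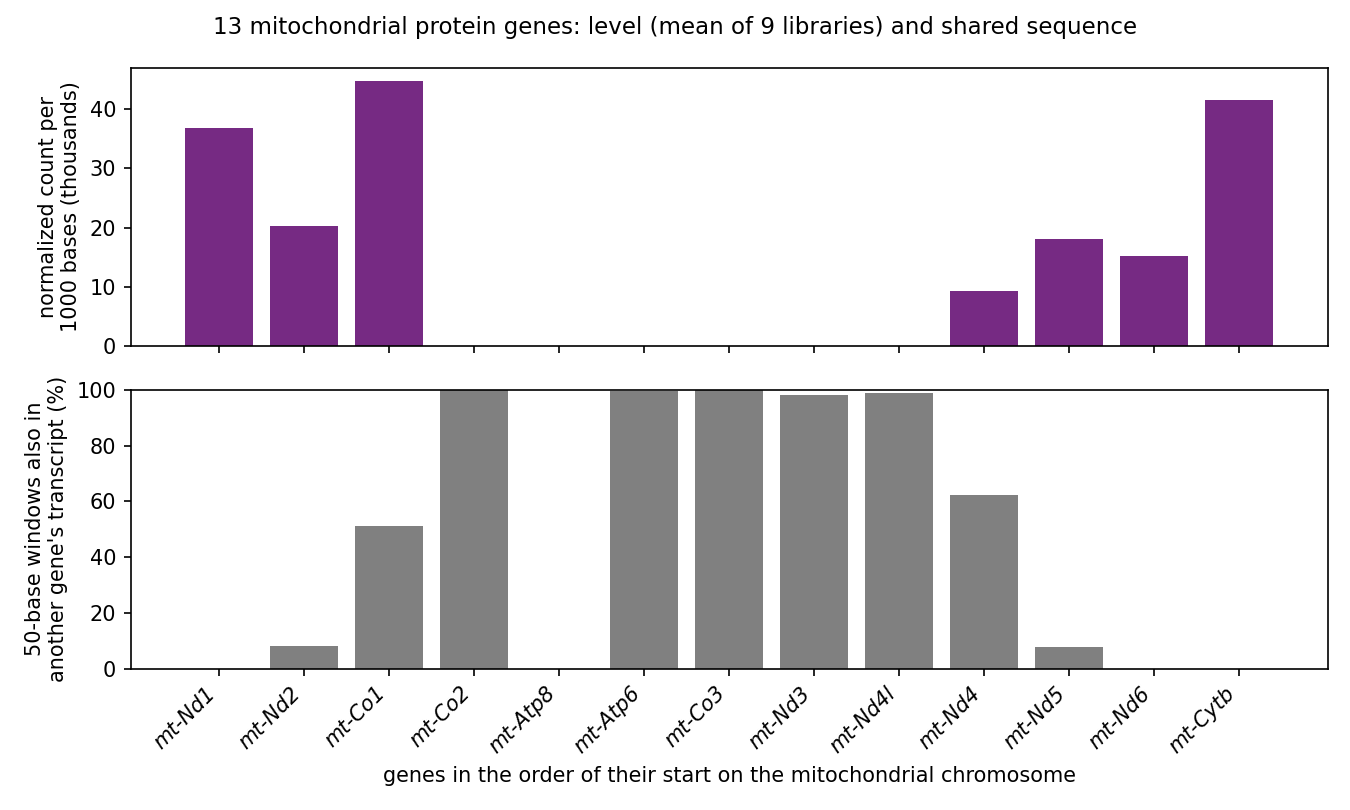
The 13 protein genes of the mitochondrial genome in the order of their start on the x axis, with the mean normalized count per 1000 bases over the 9 libraries (top) and the share of their 50-base windows that also occur in a transcript of another gene (bottom, %). The 6 genes without a bar on top lie next to each other, and 5 of them share 98.0% or more of their windows.

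The balance between both genomes was read from the shares of reads. The 75 nuclear members took 0.848%, 0.843% and 0.875% of all reads for Ctrl, 0.944%, 0.993% and 0.983% for DMF, and 0.81%, 0.92% and 0.942% for DMF + GSH. The 7 mitochondrial members took 2.22%, 2.16% and 2.06% for Ctrl, 2.17%, 1.89% and 1.83% for DMF, and 2.44%, 2.08% and 1.93% for DMF + GSH. The nuclear share was higher in every DMF library than in every Ctrl library, whereas the mitochondrial shares overlapped, although within each replicate number the share was lower with DMF than in Ctrl. Reads of mitochondrial members were 2.62, 2.56 and 2.35 times those of nuclear members in Ctrl and 2.3, 1.9 and 1.86 times with DMF, with no overlap. Without mt-Co1, an alternative chosen after seeing the data, the ratios were 1.79, 1.71 and 1.63 in Ctrl and 1.64, 1.31 and 1.34 with DMF, so that the groups overlapped, while the DMF library was below the Ctrl library of its number in all 3 pairs. With all 7 members, the DMF + GSH ratios of 3.01, 2.26 and 2.05 overlapped with both other groups, and each was above that of the DMF library of its number. No p is given for these sums, since the members were chosen with results of these data known.

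**Figure D4:**
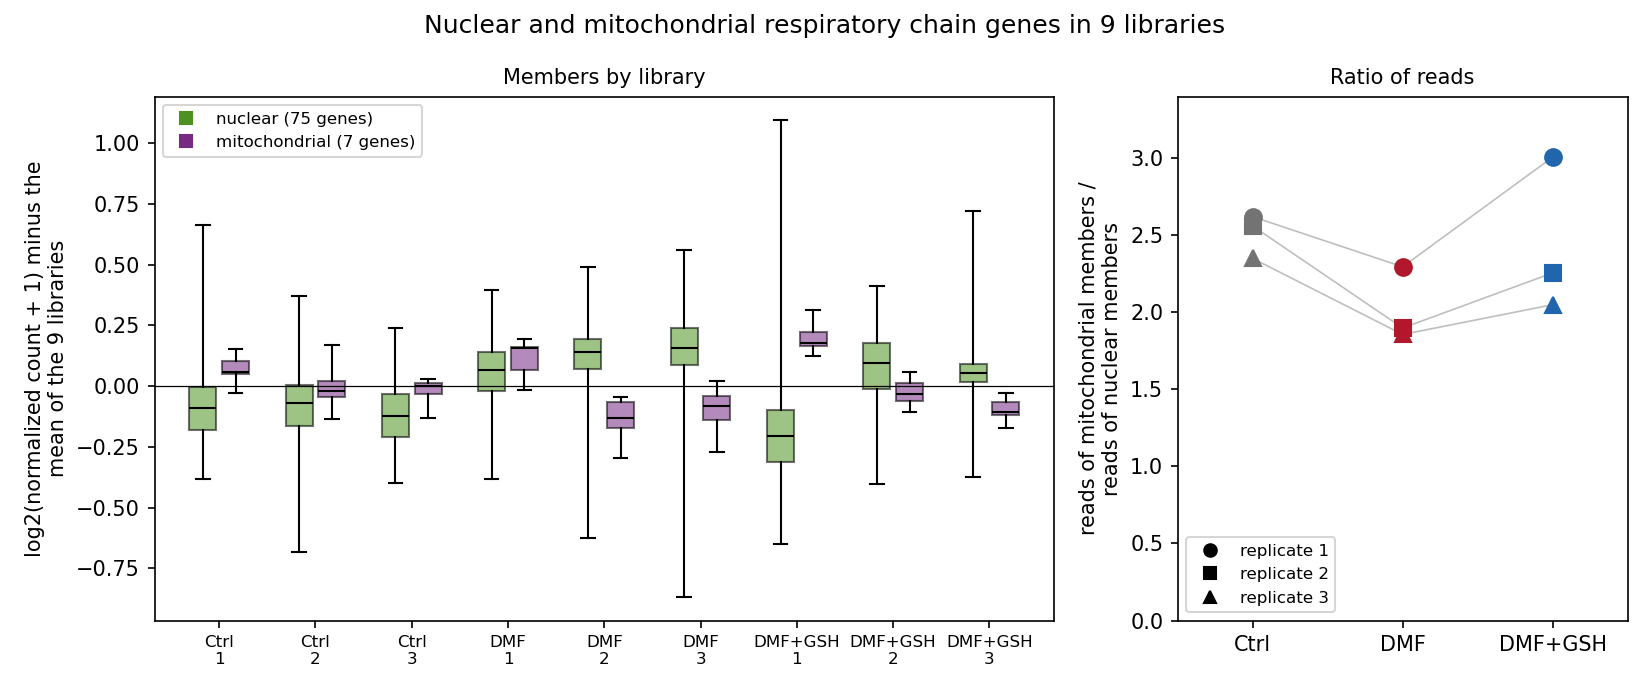
Left, for each of the 9 libraries, the distribution over genes of log2(normalized count + 1) minus the mean of the gene over all libraries (box, middle 50%; line, median; whiskers, lowest and highest gene) for 75 nuclear and 7 mitochondrial members. Right, reads of mitochondrial members divided by reads of nuclear members, with lines joining replicates of the same number. Nuclear medians lie below 0 in the 3 Ctrl libraries and in DMF + GSH replicate 1 (−0.21) and above 0 in the 3 DMF libraries.

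Addition of GSH asked which DMF effects a thiol would prevent. With DMF + GSH against DMF, 9 members were lower and 1 was higher, together 12.2% against 22.3% of all genes tested (12.4% of all genes were called lower and 9.99% higher), a smaller share than that of all genes. With the replicate block 25 were lower and 4 higher, against 21.6% and 19.9%. The 75 nuclear members had a median difference of −0.15, with 61 of them lower, and by replicate number it was −0.28, −0.073 and −0.082. The 7 mitochondrial members had a median of 0.053, with 0.061, 0.13 and −0.026 by number, and 0 were called. With the block, mt-Cytb and mt-Co1 were called higher (both 0.17, adjusted p = 0.0227 and 0.0403). The 9 members called lower in the main fit were Atp5g1, Ndufa5, Uqcrq, Ndufb6, Uqcr10, Ndufs7, Uqcrc1, Ndufa9 and Atp5g3, and the one called higher was Cox7a2l. Both comparisons share the DMF libraries, so that a library that is high there raises one and lowers the other. Atp5g1 differed by −0.56 (SE 0.11, adjusted p = 0.0131) between DMF + GSH and DMF, beside 0.61 between DMF and Ctrl. Ndufa5 differed by −0.54 (SE 0.13, adjusted p = 0.0218), Uqcrq by −0.37 (SE 0.10, adjusted p = 0.0234) and Ndufb6 by −0.39 (SE 0.11, adjusted p = 0.0317). Cox7a2l differed by 0.43 (SE 0.10, adjusted p = 0.0184). In all 10 the libraries of DMF and DMF + GSH did not overlap. Over the 82 members, 23 had all DMF + GSH libraries below all DMF libraries (20.5% of all genes) and 3 above (17.8%), while 36 were lower in all 3 numbers (33.4%) and 9 higher (31.9%).

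The libraries differed among themselves. DMF + GSH replicate 1 had the lowest median deviation of the nuclear members of the 9 libraries, −0.21, against 0.094 and 0.053 in replicates 2 and 3. It was the lowest of the 3 DMF + GSH libraries in 8 of the 9 genes called lower, Ndufa9 being the exception. Without it the median of the nuclear members was −0.058 and 0 members were called, as was so without DMF replicate 1, DMF replicate 3 or DMF + GSH replicate 2, when 0.0862%, 0.129%, 0.922% and 1.23% of all genes were called. With the block, 13 to 26 members were lower in these fits, when 30.9% to 36.5% of all genes were called.

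Between DMF + GSH and Ctrl, 0 members were called by limma, by edgeR or with the replicate block, and 1 of the 82, Uqcrh, had an unadjusted p under 0.05. Of all genes 0.0% were called in the main model and 0.0345% with the block (0.00862% higher, 0.0259% lower). Of the members 2, Atp5s and Cox7a1, had all DMF + GSH libraries above all Ctrl libraries (2.08% of all genes) and 0 below (2.39%). Cox7a1, with means of 8.37 in Ctrl, 8.01 with DMF and 14.9 with DMF + GSH, reached the minimum only through the group where it is high, so that its place in this count is no result. Of the 82, 9 were higher in all 3 numbers (11.7%) and 1 lower (14.2%). The median of the nuclear members was 0.064, with −0.11 in replicate number 1 and 0.15 and 0.20 in numbers 2 and 3, so that 15 of 75 genes were higher in number 1 and 69 and 63 in the others. Without DMF + GSH replicate 1 this median was 0.18. The 7 mitochondrial members had a median of 0.017.

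Of the genes with tissue-specific forms, the cells used those of most tissues. Cox6a1, Cox7a2, Cox8a, Cox6b1 and Cox4i1 had means from 791 to 2784. The heart and muscle form Cox6a2 had 16 reads in all 9 libraries together, the hypoxia and lung form Cox4i2 13, Cox8b 1, and Cox8c and the testis form Cox7b2 0. Cox7a1, the muscle form of VIIa, passed the minimum with a mean of 10.4, and Cox6b2, the testis form of VIb, with 17.6. Cox6b2 had the largest negative difference of all members, −0.49, on counts of 27, 16.7 and 14.2 for Ctrl and 13.8, 18 and 8.71 for DMF that overlapped (adjusted p = 0.351). These members and Atp5g2 (32.2) were nearest to the minimum from above, and mt-Nd3, Cox6a2 and Cox4i2 from below, with means of 4.47, 1.75 and 1.44.

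Promoters of respiratory genes are known for sites of NRF1, of the ETS factor GABP and of YY1, transcription factors that act on many nuclear genes of mitochondria. RefSeq windows from 250 bases before to 50 bases after the start (GRCm38.p6) were at hand for 65 of the 75 nuclear members. Each was searched on both strands, beside the windows of 27025 genes, which were not limited to genes expressed in these cells. The NRF1 palindrome, which is the first run of capitals in the window of Cox6a1, occurred in 5 members (7.69%, against 1.07% of 27025 genes), the ETS letters CCGGAAG in 14 (21.5%, against 9.93%), the YY1 letters AAGATGGCG in 8 (12.3%, against 1.64%) and the cyclic AMP response letters TGACGTCA in 4 (6.15%, against 2.03%). Members with and without a match had like medians of the DMF difference, 0.21 and 0.21 for NRF1, 0.23 and 0.21 for ETS, 0.22 and 0.21 for YY1, and 0.22 and 0.21 for TGACGTCA. Of the 8 with YY1 letters 4 were called (Ndufa9, Ndufs4 and Ndufs6 higher, Atp5sl lower), of the 14 with ETS letters 2, of the 5 with NRF1 letters 1 and of the 4 with TGACGTCA 0, where 28.0% of all genes were called, and these counts were not tested against each other. The windows of 4 called members are shown with the matches in capitals, Cox6a1 with NRF1 and, on the other strand, ETS at chr5:115348909-115349208 (minus strand), Ndufs4 with YY1 at chr13:114388045-114388344 (minus strand), Ndufs6 with YY1 at chr13:73328433-73328732 (minus strand), and Atp5sl, which fell, with YY1 at chr7:25619164-25619463 (plus strand).
Cox6a1: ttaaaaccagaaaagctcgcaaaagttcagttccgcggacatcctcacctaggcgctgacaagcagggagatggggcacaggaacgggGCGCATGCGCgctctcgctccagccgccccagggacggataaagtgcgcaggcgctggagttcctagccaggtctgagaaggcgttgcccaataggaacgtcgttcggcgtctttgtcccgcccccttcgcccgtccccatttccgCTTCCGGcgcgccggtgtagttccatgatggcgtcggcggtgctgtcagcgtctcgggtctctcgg
Ndufs4: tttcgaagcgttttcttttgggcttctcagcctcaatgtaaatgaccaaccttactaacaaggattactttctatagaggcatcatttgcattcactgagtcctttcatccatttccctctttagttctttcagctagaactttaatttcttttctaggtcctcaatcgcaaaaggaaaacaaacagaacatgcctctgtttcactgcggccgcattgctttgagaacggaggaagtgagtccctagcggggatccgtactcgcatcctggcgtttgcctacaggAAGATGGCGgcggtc
Ndufs6: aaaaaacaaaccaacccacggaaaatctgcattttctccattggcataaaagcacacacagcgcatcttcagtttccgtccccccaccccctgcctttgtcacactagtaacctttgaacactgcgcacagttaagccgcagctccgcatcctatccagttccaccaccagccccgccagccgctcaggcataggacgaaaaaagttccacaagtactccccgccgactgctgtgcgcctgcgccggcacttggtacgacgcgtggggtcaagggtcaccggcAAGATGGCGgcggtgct
Atp5sl: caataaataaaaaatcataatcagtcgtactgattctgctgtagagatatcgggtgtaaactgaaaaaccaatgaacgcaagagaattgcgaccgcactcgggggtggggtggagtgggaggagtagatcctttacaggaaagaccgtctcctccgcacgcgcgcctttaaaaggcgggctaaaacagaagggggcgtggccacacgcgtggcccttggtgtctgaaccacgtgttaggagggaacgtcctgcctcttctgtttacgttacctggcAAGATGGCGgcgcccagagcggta
The YY1 letters stood in the last 50 bases of the window, after the transcript start, in the genes that rose and in the one that fell. A match is a description of letters and not a site that was bound.

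Other genes of respiration were taken from lists, whose counts stand beside 14.6% of all genes called higher and 13.3% called lower with DMF, and 23.7% and 21.4% with the block. Complex II, the 4 nuclear genes of succinate dehydrogenase, had a median of 0.15 and 0 called (2 with an unadjusted p under 0.05, 3 with the block and 0 in edgeR). Sdhb, the iron-sulfur subunit, differed by 0.23 (adjusted p = 0.051), and the membrane anchors Sdhc and Sdhd by 0.16 (adjusted p = 0.112) and 0.15 (adjusted p = 0.151). These 3 passed with the block (adjusted p = 0.00295, 0.041 and 0.0434). Of 10 electron carriers and further parts, 5 rose and 1 fell (6 and 1 with the block), with a median of 0.30. Dhodh, which feeds electrons from pyrimidine synthesis into ubiquinone, rose by 0.72 (adjusted p = 0.00778), Usmg5, a small ATP synthase subunit under an older symbol, by 0.51 (adjusted p = 0.016), and Etfdh, the entry of electrons from fatty acid oxidation, fell by 0.39 (adjusted p = 0.0223). Of 13 genes of ubiquinone synthesis 6 rose, with a median of 0.32, and with the block 8 were called higher and 1, Adck3, lower (difference −0.63, adjusted p = 0.0241). Those that rose include Coq2 by 0.36 (adjusted p = 0.017), Pdss1 by 0.58 (adjusted p = 0.0173) and Coq7 by 0.42 (adjusted p = 0.0295).

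Genes that build the chain were read the same way. Of 45 assembly factors tested 13 rose and none was called lower, with a median of 0.20, and with the block 18 were called higher and 1, Tmem126b, lower (difference −0.38, adjusted p = 0.0142). Uqcc2 rose by 0.54 (adjusted p = 0.0113), Ndufaf4 by 0.73 (adjusted p = 0.0132) and Timmdc1 by 0.47 (adjusted p = 0.0146). Of 76 genes of the mitochondrial ribosome, which translates the 13 mitochondrial proteins, 45 rose and none was called lower (59 and 0 with the block), with a median of 0.40, and 68 were higher in all 3 replicate numbers, against 34.3% of all genes. Mrpl20, Mrpl38 and Mrpl11, proteins of its large subunit, rose by 0.65 (adjusted p = 0.006), 0.71 (adjusted p = 0.00602) and 0.59 (adjusted p = 0.0065). Of 28 genes for mitochondrial DNA and RNA 11 rose, with a median of 0.22, and with the block 15 were called higher and 1, Polg2, lower (difference −0.44, adjusted p = 0.0295). There were rises of 1.09 (adjusted p = 0.00313) for the topoisomerase Top1mt, 0.68 (adjusted p = 0.00906) for the tRNA-processing Elac2 and 0.47 (adjusted p = 0.0103) for the RNA-binding Lrpprc. Of 14 transcription regulators 6 rose and 3 fell (6 and 4 with the block). Myc rose by 0.87 (adjusted p = 0.00554) and Pprc1, a coactivator of the PGC-1 family, by 0.67 (adjusted p = 0.00737), while Hif1a fell by 0.33 (adjusted p = 0.00743).

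With DMF + GSH against DMF these lists had medians of −0.091 (complex II), −0.20 (carriers), −0.20 (assembly factors), −0.30 (mitochondrial ribosome), −0.29 (DNA and RNA), −0.29 (ubiquinone synthesis) and −0.070 (regulators). Of the ribosomal genes 37 of 76 were called lower (50 with the block), against 12.4% of all genes (21.6% with the block). Against Ctrl, 0 genes of any list were called with DMF + GSH, and the list medians lay between −0.022 and 0.072.

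**Figure D5:**
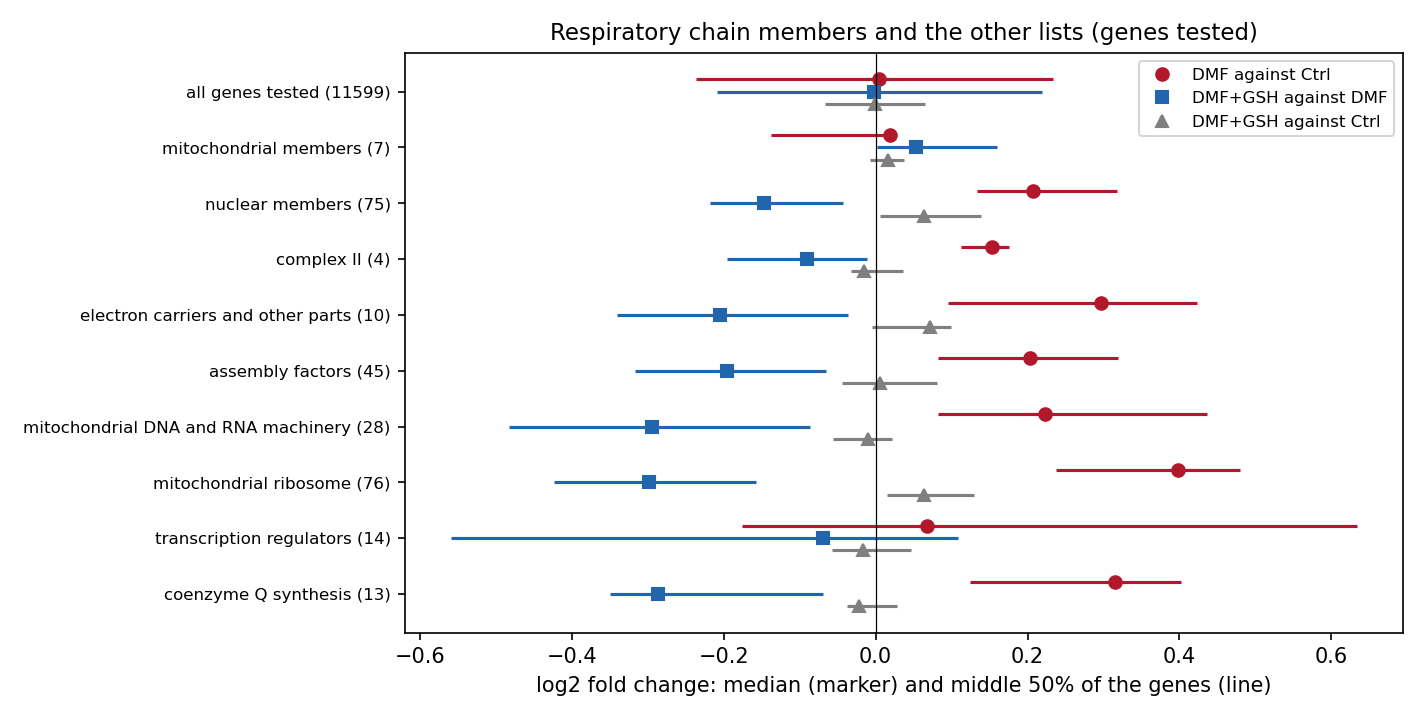
Median (marker) and middle 50% of the genes (line) of the log2 difference (x axis) for all genes tested, the members and 7 lists of other genes of respiration, in 3 comparisons. The nuclear members lie at 0.21, −0.15 and 0.064, the mitochondrial ribosome at 0.40, −0.30 and 0.064, and the median of the mitochondrial members near 0 in all 3. DMF against Ctrl and DMF + GSH against DMF share the DMF libraries.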

How the data were processed

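Poly(A) RNA of 9 cultures was sequenced as single 50-base reads, which the authors aligned to GRCm38 with STAR 2.4.0b, counted per gene with featureCounts and compared with DESeq2. The signal deposited by the authors is the count of each gene divided by a size factor per library. Dividing by the smallest step of each library gave whole reads for 100% of the values (tolerance 0.01). The authors' comparison columns (log2 fold change, statistic, p-value, adjusted p) were not used, and 0 other sample columns were left out. The sources used here do not say how strand and reads with several matches were handled.

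The test was limma-trend (limma 3.58.1, R 4.3.3) on log2(normalized count + 1) of all 9 libraries, group and titled batch in the model, over 11599 of 41388 genes with a mean of at least 10, with Benjamini-Hochberg adjustment. Batch 1 held replicate 1 only. On the recovered reads, edgeR 4.0.16 (quasi-likelihood test) called 3276 genes for DMF against Ctrl, 2649 for DMF + GSH against DMF and 0 for DMF + GSH against Ctrl. Over genes, after subtraction of group means, libraries of the same number but different groups correlated with 0.447 to 0.578 in all 9 pairs. Those of different numbers correlated with at most −0.0621. The subtraction ties both ranges, since positive values for the same number push the others down. The numbers, taken from the sample titles, were used as pairs on the ground of the first range. Over the members alone these ranges overlapped, −0.088 to 0.393 for the same number and up to 0.325 for different numbers. The limma and edgeR fits with the batch term were tested on simulated data before use, for DMF against Ctrl only. At a simulated log2 change of 0.5, limma recovered 41% of the changed genes and edgeR 44%. At a change of 1 these shares were 83% and 80%. The fits with the replicate block were not tested in this way.

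Genes named are every mitochondrial gene, the 4 largest rises and falls per complex, members called with GSH (at most 15), catalytic and core subunits (1 of them is not reported here), isoform families and the 3 smallest adjusted p per list. Ndufa2, Ndufs6, Uqcrh, Atp5s, Adck3, Tmem126b and Polg2 were named after their values were seen. Members and lists were chosen with earlier results of these data known. Alternatives were pseudocounts of 0.5 and 4, no minimum and a minimum of 50, TMM, quantile and non-mitochondrial scaling, no batch term, the replicate block, the 6 libraries compared, robust eBayes, edgeR and each library left out. Levels per 1000 bases used merged exons of GENCODE vM21, in which 40340 genes were found, and all 75 nuclear members matched RefSeq. Matplotlib 3.10.9 drew the figures, and pandas 2.3.3 with NumPy 2.4.6 (Python 3.11.15) the tables.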

Additional observations from a re-analysis of the deposited data

How the results depend on the processing

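The pairing moved the counts most. With the replicate block 40 members were called higher and 4 lower with DMF, in edgeR with the block 39 and 5, and for DMF + GSH against DMF 25 were lower and 4 higher, in edgeR with the block 24 and 6. Leaving out 1 library gave 0 to 21 members higher and 0 to 3 lower with DMF (with the block 44, 20, 26, 23, 35, 30, 44, 39 and 38 higher and 4 to 6 lower), 0 to 12 lower and 0 to 1 higher for DMF + GSH against DMF (with the block 25, 24, 24, 13, 23, 20, 13, 26 and 23 lower and 5, 3, 3, 3, 1, 3, 2, 1 and 5 higher), and 0 for DMF + GSH against Ctrl. The count of members lower with DMF + GSH than with DMF was 5 with no minimum, quantile normalization, scaling to reads outside the mitochondrial genome, or only the 6 libraries compared, and 4 with no batch term, when 4.38%, 11.3%, 10.9%, 10.9% and 10.4% of all genes were called lower. The cause was not tested, but more genes entered the test with no minimum and fewer libraries with the 6 compared.

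The median of the nuclear members kept its direction in every alternative tried for DMF against Ctrl and for DMF + GSH against DMF. Leaving out a library, it ranged from 0.17 to 0.29 (block: 0.16 to 0.29) and from −0.18 to −0.058 (block: −0.20 to −0.058), and for DMF + GSH against Ctrl from 0.03 to 0.18 (block: 0.026 to 0.18). The mitochondrial medians ranged from −0.027 to 0.022 (block: 0.034), from 0.015 to 0.089 (block: 0.023 to 0.10) and from −0.047 to 0.04 (block: 0.06). Without mt-Co1, the gene with the most reads, the mitochondrial share of reads was 1.46% in Ctrl, 1.39% with DMF and 1.49% with DMF + GSH, and the ratio of mitochondrial to nuclear member reads, tried after seeing the data, was 1.71, 1.43 and 1.69.

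Genes near 0 turned sign without passing the test. Under quantile normalization Cox7a1 was at 0.051, Ndufs5 at 0.049, mt-Nd1 at −0.041, mt-Nd4 at −0.033 and mt-Nd6 at −0.047. With that scaling to non-mitochondrial reads mt-Nd1, mt-Nd4 and mt-Nd6 were at −0.0025, −0.0066 and −0.0078. Leaving out 1 library, values for DMF against Ctrl ranged in Cox4i1 from −0.011 to 0.12, Cox7a1 from −0.33 to 0.068, Ndufs5 from −0.33 to 0.047, mt-Nd1 from −0.027 to 0.052, mt-Nd2 from −0.0057 to 0.13, mt-Nd4 from −0.018 to 0.073 and in mt-Nd6 from −0.017 to 0.064. With the block and 1 library left out, signs turned in Cox4i1 at −0.0074 and −0.0049, in Cox7a1 at 0.15, 0.058 and 0.038, in Ndufs5 at 0.048, 0.11 and 0.025, in mt-Nd1 at −0.027, in mt-Nd2 at −0.0057, in mt-Nd4 at −0.018 and −0.0041, and in mt-Nd6 at −0.013.

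Depth limits the genes near the minimum: in Ctrl replicate 3, the shallowest library, a normalized count of 10 is fewer than 10 reads. The p-values are over 3 libraries a group, and proteins and respiration were not measured here.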
